A study of Rattus norvegicus with 6 samples.

Results

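The acute phase plasma proteins are secreted liver products whose transcripts shift during injury and inflammation, and 10 of their genes (A2m, Orm1, Hp, Cp, Tf, Ahsg, Ttr, Alb, Ambp and C3) were followed here in rat liver. They were chosen by symbol: a probe set, the group of short probes that reads 1 transcript on the array, was taken where the platform annotation gave it a single gene symbol and that symbol was one of the 10. This gave 24 of 8740 probe sets, for 9 of 4736 distinct symbols on the array. Tf, transferrin, the iron carrier of plasma, has no value here, because its 3 probe sets carry a second symbol as well. Affymetrix rat genome arrays (RG_U34A) measured liver RNA of male Sprague Dawley rats, with 3 Control and 3 NASH arrays. Control rats received a liquid diet with 5% corn oil that supplied 187 kcal a day per kg of metabolic body mass, and NASH rats one with 70% corn oil and 220 kcal, each for 3 weeks and each by total enteral nutrition, which is feeding through a tube. NASH stands for nonalcoholic steatohepatitis, fatty liver with inflammation. Fat content and energy supply differ together between the groups, no age is stated, and no source says that the arrays came from separate animals, so p-values measure only the spread between arrays, which may be technical. Groups follow the sample titles, since 1 description, that of a Control sample, is repeated on all 6.

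In the acute phase response, the cytokines IL-6, IL-1 and TNF reach hepatocytes and act through the kinases and factors of the JAK-STAT, C/EBP and NF-kB pathways. Positive acute phase genes (here A2m, Orm1, Hp, Cp and C3) are then transcribed more, and negative ones (Ahsg, Ttr, Alb, Ambp and Tf) less. In the rat, alpha-2-macroglobulin and alpha-1-acid glycoprotein are among the strongly induced proteins.

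Orm1 and Ambp are neighbours on chromosome 5, with 3 genes between them, 2 of them protein-coding. The signals of Orm1 and Ambp differed between the diets in opposite directions, though no probe set of either passed the adjusted p threshold given below. Their promoter windows, the 250 bases before the annotated start, are shown to set a positive beside a negative member. The sequences are RefSeq's on build GRCr8, at chr5:81788259-81788508 on the plus strand for Orm1 and chr5:81593858-81594107 on the minus strand for Ambp. They are written 5′ to 3′ on the gene's own strand, with matches to the searched motifs in capitals.
Orm1: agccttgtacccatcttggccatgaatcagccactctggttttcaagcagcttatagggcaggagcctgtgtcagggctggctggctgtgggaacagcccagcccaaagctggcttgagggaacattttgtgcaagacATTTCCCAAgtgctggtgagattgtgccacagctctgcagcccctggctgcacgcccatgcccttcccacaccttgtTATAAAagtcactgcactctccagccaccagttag
Ambp: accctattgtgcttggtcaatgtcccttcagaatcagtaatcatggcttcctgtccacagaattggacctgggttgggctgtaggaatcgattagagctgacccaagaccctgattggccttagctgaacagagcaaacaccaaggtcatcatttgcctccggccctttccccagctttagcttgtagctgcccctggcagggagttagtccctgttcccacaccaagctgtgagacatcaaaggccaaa

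The capitals in Orm1 mark a match to the C/EBP motif TTNNGNAAT on the reverse strand, 112 to 104 bases before the start, and a TATAAA box 35 to 30 bases before it. Ambp holds no match to any of the 7 motifs in this window. Both strands were searched in 33469 promoter windows of equal length, which include those of 8 of the 10 genes (A2m and Hp had no entry). The C/EBP motif was in 10.9% of all windows and in 5 of the 8 (Orm1, Tf, Ahsg, Alb and C3), which are positive and negative members alike. TATAAA was in 12.9% of all windows and in Orm1, Cp and Tf. The palindromic STAT motif TTCNNNGAA was in 7.67% of all windows and in none of the 8. CTGGGAA, a core sequence known from acute phase promoters, was in 9.56% of all windows and in Ahsg, Ttr and C3. It shares letters with the STAT and C/EBP motifs, so that matches can overlap. TGTTCT, a glucocorticoid receptor core, was in 17.5% of all windows and in Ahsg, the HNF1 core GTTAAT in 6.45% and in Alb, and the NF-kB motif in 1.30% and in Ttr. A match is a description of letters and not a binding site, and a link between these matches and the signals was not tested.

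The deposited signals had trimmed means of 73.1 to 116 per array, and correlations between arrays lay between 0.908 and 0.971. Marker sums that follow are of quantile-normalized signals. That step gives every array the same set of values, which limits how far sums of the brightest probe sets can differ. All 11 hepatocyte markers on the array lay above the filter on dim probe sets and summed to 28468 to 32062 in Control and 29170 to 30045 in NASH, but most of this signal is from acute phase genes (Alb, Ttr, Serpina1 and Apoa1). The other 7 summed to 7716 to 9867 in Control and 7193 to 8461 in NASH, lowest in NASH 2. NASH 2 stood apart through markers of brown fat and adipocytes (summed signal 3905, against at most 585 in the other arrays; 5 of 7 above the filter) and of skeletal muscle (2609 against at most 242; 7 of 9 above the filter). Stellate cell and fibroblast markers (969 against at most 609; 5 of 6 above the filter) and blood markers (3307 against at most 2431; both above it) were highest there too. It was also the array with 1 recorded scan where the others had 2. Macrophage and Kupffer cell markers summed to 852 to 1273 in Control and 822 to 1231 in NASH. Control 3 had a 3′ to 5′ actin signal ratio of 5.07, against 2.15 to 2.93 elsewhere. The wash record in the instrument files was blank for Control 2 and NASH 3 and filled for the other 4. The part of these array features in the results below was not tested, except where a value without the array is given. In whole tissue, fewer cells of a type and less RNA per cell cannot be told apart.

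Signals below are quantile-normalized MAS5 intensities, which puts the 6 arrays on 1 distribution, and a difference is NASH minus Control on the scale log2(signal + 2.29). Of the 24 probe sets, 22 lay above the filter on dim values and were tested with limma. The other 2, both of A2m (M22670cds_at and rc_AI113046_at), had signals of 1.41 to 2.71 and 0.567 to 3.96. None of the 22 was called at a Benjamini-Hochberg adjusted p under 0.05, where 0.133% of the 5244 probe sets tested on the array were (0.0953% higher and 0.0381% lower in NASH), and the adjusted limma p-values of the 22 ran from 0.317 to 0.980. At an unadjusted limma p under 0.05 there were 8, 2 higher and 6 lower, or 36.4%, against 7.89% of all probe sets tested. That number was 2 with median centring of the arrays and 1 with a filled wash record only. The 3 NASH values lay wholly apart from the 3 Control values for 9 probe sets, 3 higher and 6 lower, or 40.9%, against 14.3% of all (6.54% higher, 7.72% lower). Both shares are descriptive only, since the members were chosen with earlier results of these data known. Probe sets of 1 gene are not independent, and these 9 belong to 6 genes, of which Alb and Ambp had all their tested probe sets on 1 side, as did Orm1, which has a single one. In all, 8 probe sets were higher and 14 lower, with a median difference of −0.10, beside −0.02 over all probe sets tested. Without scaling between arrays the latter median moved to −0.17, and 19 of the 22 were then lower.

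**Figure D1:**
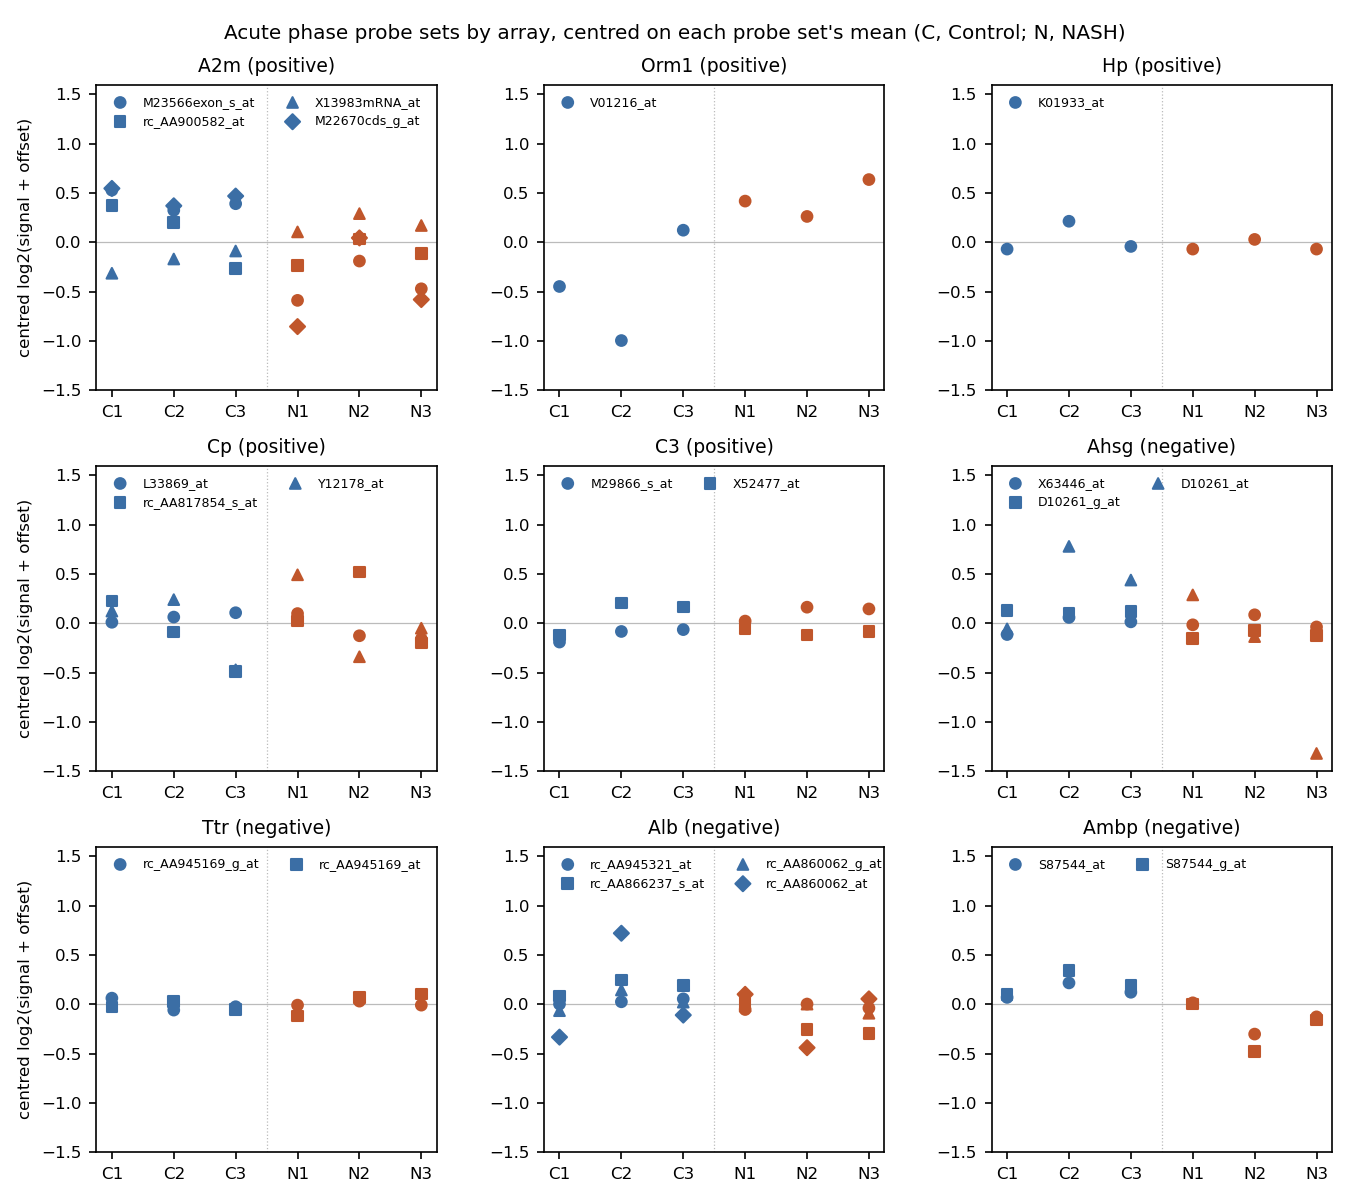
Signals of the 22 tested probe sets, as log2(signal + offset) centred on each probe set's mean over the 6 arrays (vertical axis), by array (horizontal axis; C, Control, blue; N, NASH, orange). Each panel is 1 gene and each symbol 1 probe set. Orm1 lies higher in all NASH arrays, both Ambp probe sets lie lower in them, and the probe sets of A2m go both ways.

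Orm1 encodes alpha-1-acid glycoprotein, a positive acute phase protein that binds drugs and lipids in plasma. Its signals were 1651, 1129 and 2453 in Control 1, 2 and 3 and 3009, 2701 and 3501 in NASH 1, 2 and 3. Every NASH array was thus above every Control array, with Control 3 the nearest. The difference was 0.88 ± 0.26 (standard error, n = 3 per group; 95% interval 0.27 to 1.49), or 1.84-fold, and did not pass the threshold (limma adjusted p = 0.459). Control 2 had the lowest value. The difference was 0.50 where the wash record was filled (4 arrays) and 1.63 where it was blank (2 arrays). Fits on 5 arrays gave 0.60 (without Control 2) to 1.16 (without Control 3, adjusted p = 0.169).

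A2m encodes alpha-2-macroglobulin, a broad protease inhibitor of plasma and a positive acute phase protein of the rat. Its brightest probe set, M23566exon_s_at, had signals of 357, 309 and 324 in Control 1 to 3 and 163, 216 and 177 in NASH 1 to 3. The groups did not overlap and NASH was lower, with a difference of −0.83 ± 0.19 (95% interval −1.28 to −0.38), a 1.78-fold lower signal. Its adjusted p of 0.317 was the lowest among the 22 probe sets (limma). M22670cds_g_at went the same way with less signal, at 26.4, 23.1 and 24.9 in Control and 8.57, 18.0 and 10.8 in NASH, a difference of −0.92 ± 0.31 (adjusted p = 0.507). The other probe sets of the gene did not share this pattern. X13983mRNA_at was higher in every NASH array, with 41.0, 45.6 and 48.4 in Control against 55.6, 63.6 and 58.3 in NASH and a difference of 0.38 ± 0.18 (adjusted p = 0.621). rc_AA900582_at overlapped between the groups (−0.21 ± 0.23). The A2m difference thus takes its sign from the probe set read, and the mean over the probe sets above the filter was −0.40 ± 0.19 (adjusted p = 0.615). For M23566exon_s_at it was −0.85 where the wash record was filled, −0.80 where it was blank, and −0.94 to −0.75 with 1 array left out.

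Hp, haptoglobin, captures free haemoglobin. K01933_at had signals of 4988, 6065 and 5082 in Control and 4988, 5338 and 4988 in NASH, where equal values mark equal rank in the normalized arrays. The groups overlapped, and the difference was −0.07 ± 0.11, with a 95% interval of −0.31 to 0.17.

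Cp encodes ceruloplasmin, the copper-carrying ferroxidase of plasma. The brightest of its probe sets, L33869_at, had signals of 2578, 2674 and 2757 in Control and 2741, 2345 and 2293 in NASH. NASH 1 lay inside the Control range and NASH 2 and NASH 3 below it, for a difference of −0.12 ± 0.12. The dimmer rc_AA817854_s_at differed by 0.23 ± 0.27 (0.03 without NASH 2, 0.04 without Control 3, 0.40 without Control 1 and 0.39 without NASH 3) and Y12178_at by 0.07 ± 0.30, both with overlapping groups. The 3 limma adjusted p-values ran from 0.811 to 0.962.

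C3 is the central complement component, cleaved in every activation route. M29866_s_at had signals of 4026, 4338 and 4394 in Control and 4666, 5144 and 5082 in NASH. NASH was higher on every array, by 0.22 ± 0.09 (95% interval 0.01 to 0.44; limma adjusted p = 0.619). The second probe set, X52477_at, had 3174, 3979 and 3863 against 3330, 3174 and 3252. It overlapped, and its difference had the opposite sign (−0.17 ± 0.12, adjusted p = 0.726). Without scaling between arrays M29866_s_at differed by −0.03.

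Of the 11 tested probe sets of the positive genes, 5 were therefore higher and 6 lower. For the negative genes the tested probe sets were 3 higher and 8 lower.

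Ambp encodes a precursor that is cut into alpha-1-microglobulin, a haem-binding lipocalin, and bikunin, the light chain of the inter-alpha-inhibitors. S87544_at had signals of 4053, 4487 and 4202 in Control and 3901, 3132 and 3535 in NASH. S87544_g_at, from the same transcript, had 3740, 4423 and 3979 in Control and 3501, 2511 and 3132 in NASH. All NASH arrays were below all Control arrays in both, and NASH 2, with its signals of fat and muscle markers, was the lowest. The differences were −0.27 ± 0.11 (adjusted p = 0.619) and −0.42 ± 0.14 (adjusted p = 0.538) by limma. Without NASH 2 they were −0.19 and −0.29, with filled wash records −0.24 and −0.38, and with blank ones −0.34 and −0.50.

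Alb, serum albumin, is the main carrier and osmotic protein of plasma. rc_AA945321_at had signals of 5847, 5942 and 6065 in Control and 5628, 5847 and 5685 in NASH, so that NASH 2 met Control 1, with a difference of −0.06 ± 0.08. rc_AA866237_s_at had 5527, 6181 and 5942 against 5279, 4372 and 4246. It was lower in every NASH array, by −0.35 ± 0.11 on the log2 scale (limma adjusted p = 0.499). The other probe sets overlapped between groups, rc_AA860062_g_at at −0.07 ± 0.10 and the dim rc_AA860062_at, with signals of 23.7 to 55.7, at −0.19 ± 0.32. All 4 Alb differences were below 0, though the 95% interval excluded 0 for rc_AA866237_s_at alone.

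Ahsg encodes fetuin-A, a plasma glycoprotein that keeps calcium phosphate in solution. X63446_at had signals of 4423, 4988 and 4836 in Control and 4736, 5082 and 4666 in NASH, which overlapped (0.02 ± 0.09). D10261_g_at had 4372, 4284 and 4338 against 3601, 3805 and 3669. NASH was lower on every array there, by a difference of −0.23 ± 0.09 (limma adjusted p = 0.581), although X63446_at reads the same gene. The dim D10261_at had a difference of −0.78 ± 0.45 that rested on NASH 3, with a signal of 6.32 against 17.3 to 34.6 on the other arrays, and without that array it was −0.31.

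Ttr, transthyretin, carries thyroxine and, through retinol-binding protein, vitamin A. rc_AA945169_g_at had signals of 5806, 5338 and 5466 in Control and 5527, 5685 and 5527 in NASH. rc_AA945169_at had 4013, 4164 and 3946 against 3765, 4284 and 4394. Both overlapped, with differences of 0.01 ± 0.08 and 0.03 ± 0.10. The 95% intervals, −0.18 to 0.20 and −0.20 to 0.27, both spanned 0. Under the other 3 scalings of the arrays both Ttr differences and that of Ahsg X63446_at were below 0, from −0.25 to −0.04.

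**Figure D2:**
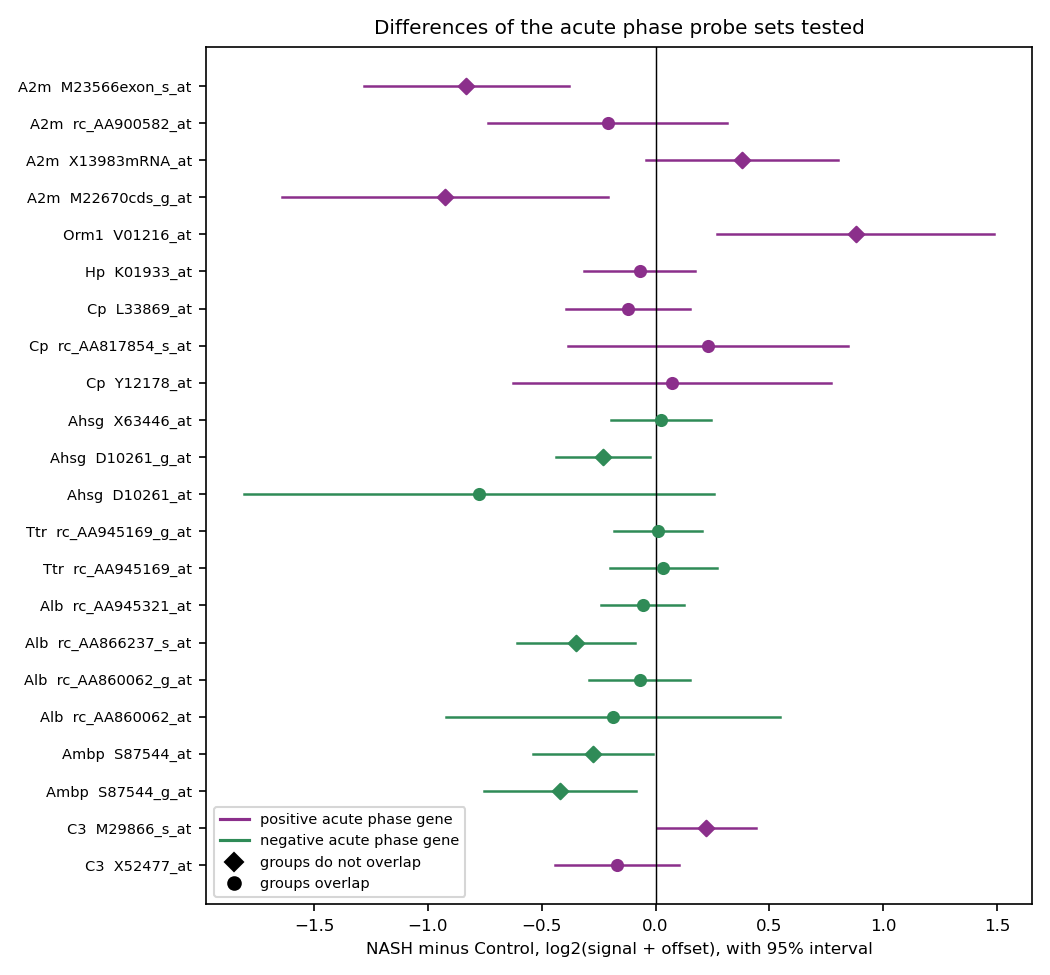
Differences between NASH and Control on the log2(signal + offset) scale (horizontal axis) for the 22 tested probe sets (vertical axis), with 95% limma intervals as lines. Purple marks positive and green negative acute phase genes, and diamonds mark the 9 probe sets whose groups do not overlap. None passed the adjusted threshold, and the largest differences in size with separated groups are those of A2m (−0.92 and −0.83) and Orm1 (0.88).

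Standard errors were smallest for the brightest probe sets. Quantile normalization gives equal ranks equal values, and the limma fit used an intensity trend. The part of either in these standard errors was not tested. For 13 of the member probe sets the signal lay in the brightest 2% of every array, and their standard errors were 0.079 to 0.145 on the log2 scale, against 0.18 to 0.45 for the other 9. Among these 9 the order was not that of the signal, since Orm1 had 0.26 and the dim A2m X13983mRNA_at 0.18.

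To compare the classes, each gene's brightest probe set was centred on its mean over the 6 arrays, and the centred values were averaged over the 5 positive and the 4 negative genes. The positive mean was −0.03, −0.09 and 0.10 in Control 1 to 3 and −0.02, 0.03 and 0.02 in NASH 1 to 3. These overlap, and Control 3 was the highest array. The negative mean was 0.01, 0.06 and 0.04 in Control and −0.01, −0.04 and −0.05 in NASH. NASH was thus lower on each array, by a difference of −0.07, but the groups overlapped without scaling and with median centring. The probe sets averaged here differed by −0.27 for Ambp, −0.06 for Alb, 0.02 for Ahsg and 0.01 for Ttr. Most of the negative difference thus came from Ambp. Positive minus negative was −0.04 ± 0.11 in Control and 0.04 ± 0.05 in NASH (SD, n = 3 each). The difference of 0.09 between the diets is close to the pooled SD of 0.084 within groups. It was made of opposite parts, since without A2m it was 0.30 and without Orm1 −0.13. Without Ambp it was 0.02. With all probe sets of a gene averaged it was 0.30. It was 0.02 where the wash record was filled and 0.23 where it was blank.

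**Figure D3:**
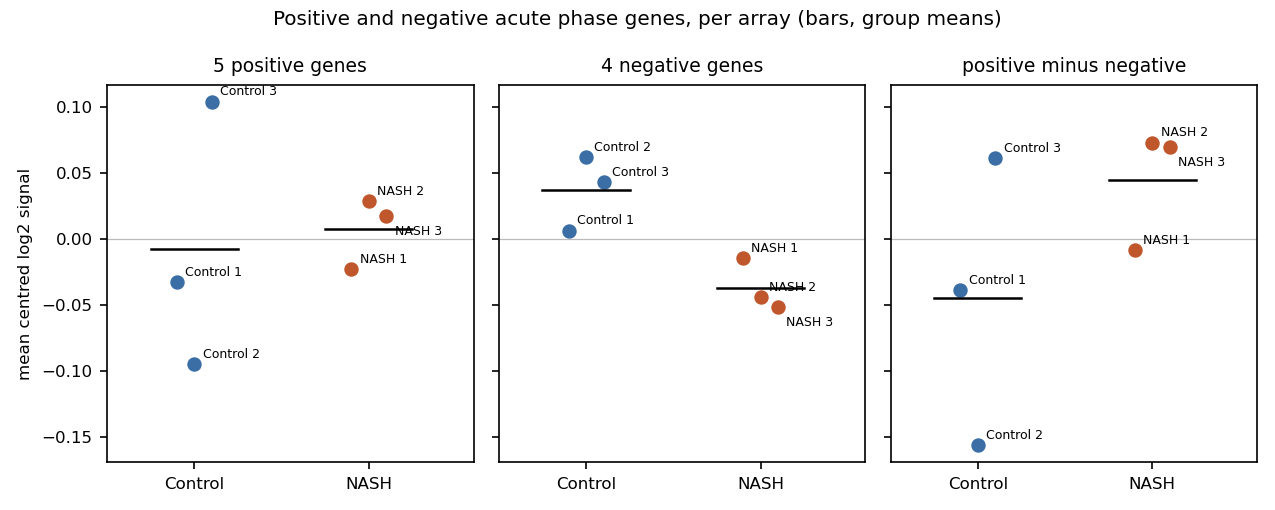
Mean centred log2 signal (vertical axis) of the 5 positive genes, of the 4 negative genes with a value, and the positive minus the negative mean, for each Control (blue) and NASH (orange) array. Bars are group means. The arrays of the groups overlap for the positive genes and for positive minus negative, where Control 3 at 0.06 lies near NASH 2 and NASH 3 at 0.07.

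Other genes of the response were taken from 6 lists, with 1 probe set per gene, the brightest, and 69 distinct genes tested. None was called by limma. An unadjusted limma p under 0.05 was found for 10 of the 69, beside 414 of 5244 (7.89%) over all probe sets tested. Under the alternative settings that number ran from 4 to 10 genes, so 10 is the highest of them. In 13 of the 69 the groups did not overlap, beside 14.3% of all probe sets tested. The lists were chosen with earlier results of these data known, so these counts are descriptive only. List medians without scaling, given below, stand beside a median of −0.17 over all probe sets tested in that setting.

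Of 17 tested other positive acute phase genes, 9 were higher and 8 lower in NASH, with a median difference of 0.07. That median was −0.18 without scaling and ran from −0.0019 (without NASH 1) to 0.10 (without Control 2) with 1 array left out. The 9 higher genes include Mug1 (0.59 ± 0.79), which is known in the rat as a negative acute phase protein. Fga, the fibrinogen alpha chain, had signals of 3451, 3639 and 3501 in Control and 4284, 4561 and 3979 in NASH, a difference of 0.27 ± 0.10. Serpina3n, a serine protease inhibitor, differed by 0.46 ± 0.19 (0.30 without NASH 2, 0.68 without NASH 3), with NASH 3 at the level of the highest Control array. Apcs, serum amyloid P, was lower in every NASH array (−0.37 ± 0.14). Itih4, an inter-alpha-inhibitor heavy chain, overlapped between the groups at −0.44 ± 0.18. The limma adjusted p-values of Fga, Serpina3n, Apcs and Itih4 ran from 0.562 to 0.619. The 9 other negative genes, 4 higher and 5 lower, had a median of −0.0013, which was −0.24 without scaling and ran from −0.06 (without NASH 1) to 0.03 (without Control 3). Among them Serpina7, thyroxine-binding globulin, differed by 0.86 ± 0.37 with overlapping groups, Gc, vitamin D binding protein, by −0.27 ± 0.13, the anticoagulant protein C (Proc) by −0.34 ± 0.17 and the brightest probe set of Igf1 by 0.33 ± 0.17. The other 4 tested for Igf1 ran from −0.16 to 1.16.

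Of 17 tested genes of IL-6, IL-1 and TNF signalling, 8 were higher and 9 lower, with a median of −0.0027. That median was −0.22 without Control 3, 0.10 without Control 1 and 0.27 with the stricter filter. Il6, Tnf, Socs3, Il1r1, Lifr and Cntf lay below the filter and were not tested. Il6r, the receptor chain that binds IL-6, had signals of 156, 223 and 136 in Control and 120, 112 and 80.3 in NASH. It was lower on every NASH array, by −0.70 ± 0.26 (limma adjusted p = 0.581). Pias3, a STAT3 inhibitor, differed by −0.61 ± 0.27, the TNF receptor Tnfrsf1a by 0.42 ± 0.20 and the cytokine Il1a by −0.47 ± 0.24 (−0.28 without NASH 2). The cytokine Il1b went the other way from Il1a, at 0.56 ± 0.30, as did the IL-1 receptor Il1r2 at 0.37 ± 0.20. Both were higher on every NASH array. Stat3 itself differed by 0.21 ± 0.26 and Il6st, the signalling chain of the receptor, by 0.23 ± 0.21. The signals of Stat3 (13.6 to 20.1) and of Pias3 (16.9 to 40.3) were dim. Stat3 and Il6st were named outside the naming rule, after their values were seen, since they act between the receptor and the promoters. Il1b and Il1r2 were also named after their values were seen, to stand beside Il1a.

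Of 9 tested liver transcription factors that act on these promoters, 8 were lower and 1 (Hnf4a) higher, with a median of −0.27, beside −0.02 over all probe sets. The median was −0.51 without Control 3. Without scaling it was −0.45, where that over all probe sets tested was −0.17. Foxa2, a forkhead factor of hepatocytes, had signals of 87.9, 48.8 and 95.3 in Control and 45.2, 26.6 and 41.6 in NASH. The groups did not overlap, and the difference was −0.97 ± 0.31 (limma adjusted p = 0.499). Nr3c1, the glucocorticoid receptor, had 79.3, 101.5 and 90.3 against 61.1, 61.2 and 61.4, a difference of −0.54 ± 0.19 (adjusted p = 0.541). Onecut1 differed by −0.66 ± 0.31 (−1.02 without Control 3) and Foxa3 by −0.27 ± 0.20 (−0.15 without NASH 2), both with overlapping groups. A second Foxa3 probe set differed by 0.14. The C/EBP factors Cebpa, Cebpb and Cebpd differed by −0.20, −0.14 and −0.26, each by less than its standard error, and these 3 and Hnf4a were also named after their values were seen.

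Complement genes apart from C3 were 5 higher and 7 lower of 12 tested (median −0.05, −0.19 without scaling and from −0.08 without Control 2 to 0.02 without NASH 3). Mbl1, a mannose-binding lectin, had signals of 1199, 1104 and 1143 in Control and 898, 725 and 712 in NASH. NASH was lower on every array, by −0.57 ± 0.16, which did not pass (limma adjusted p = 0.442). Cfd, complement factor D, also an adipocyte product, differed by 1.06 ± 0.60 and by 0.30 without NASH 2. C1qc differed by −0.24 ± 0.22 (−0.09 without NASH 1) and C8b by −0.22 ± 0.21 (−0.08 without NASH 2).

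Among genes of iron, copper and haem handling, 6 of 7 tested were higher, with a median of 0.37 that was 0.14 without Control 3 and 0.21 without scaling. Aco1, the cytosolic aconitase that doubles as an iron-responsive RNA-binding protein, had signals of 169, 143 and 125 in Control and 323, 237 and 273 in NASH. The groups did not overlap, and the difference of 0.92 ± 0.21 had a limma adjusted p of 0.317. Its relative Ireb2 differed by 0.39 ± 0.28 (0.14 without Control 3, 0.67 without Control 2) and the haem oxygenase Hmox1 by 0.37 ± 0.20. Tfrc, the transferrin receptor, differed by 0.75 ± 0.56, but by 0.07 without Control 3, where its signal was 4.44 against at least 18.9 elsewhere.

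**Figure D4:**
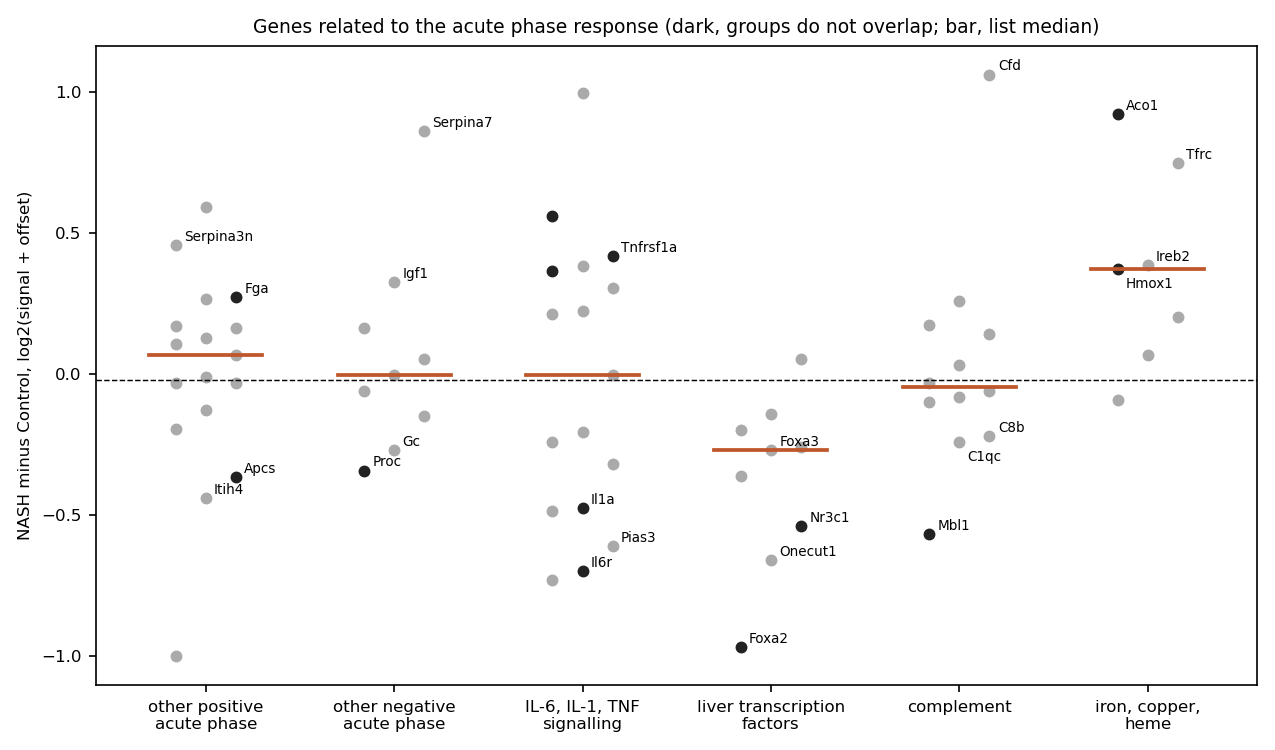
Differences between NASH and Control on the log2(signal + offset) scale (vertical axis) for the genes of 6 related lists (horizontal axis), 1 dot per gene. Dark dots are genes whose groups do not overlap, bars are list medians and the dashed line is the median of all tested probe sets (−0.02). The transcription factors lie mostly below it (median −0.27, −0.51 without Control 3) and the iron, copper and haem genes mostly above (median 0.37, 0.14 without Control 3).

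Control 3 differed from the other arrays in several acute phase transcripts, which are named here after their values were seen. Lcn2, the iron-sequestering lipocalin-2, had a signal of 578 in Control 3 and at most 84.7 elsewhere, a 6.82-fold gap. Lcn2 is also 1 of the 3 neutrophil markers on the array, which summed to 596 in Control 3 and at most 108 elsewhere. The remaining neutrophil markers, S100a8 and S100a9, lay below the filter, and a part of neutrophils in the Lcn2 signal was not tested. Mug1, a murinoglobulin, was at 134 in Control 3 and at least 857 elsewhere, a 6.39-fold gap. Murinoglobulin is known as a negative acute phase protein of the rat, although it was counted above with the positive genes. Crp, C-reactive protein, was at 413 against at least 787. Orm1 was highest among the Control arrays in Control 3, while A2m (M23566exon_s_at) and Hp signals lay inside the range of the other Control arrays. Of the 78 member and related genes, 1 lay at least 2-fold above and 4 at least 2-fold below all other arrays in Control 3, or 6.41%. These were Lcn2 above and Mug1 and the dim Tfrc, Jak1 and Cntfr below, while Crp, at 1.90-fold, did not reach that size. Over all probe sets tested the share in Control 3 was 2.21%, below that in Control 2 (2.86%) and NASH 2 (2.59%). In the other arrays the share of the 78 was at most 1.28%.

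With Control 3 left out, the difference between the diets went from −0.999 to 0.39 for Lcn2, from 0.59 to −0.49 for Mug1 and from 0.17 to −0.33 for Crp. The sign of each of these turned on that array, and none passed the limma threshold with or without it.

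**Figure D5:**
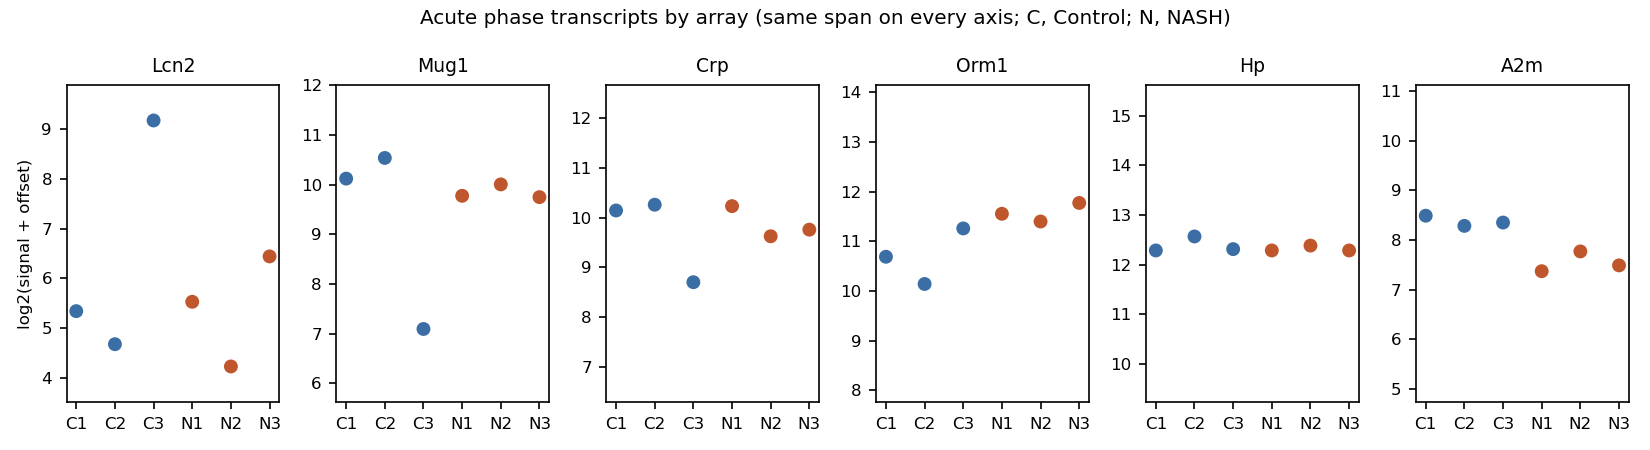
Signals as log2(signal + offset) (vertical axes, of equal span) by array (horizontal axes; C, Control, blue; N, NASH, orange) for Lcn2, Mug1, Crp, Orm1, Hp and A2m. Control 3 lies far above the other arrays for Lcn2 and below them for Mug1 and Crp, while Hp and A2m in Control 3 lie within the other Control arrays.

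For each of the 9 genes, the 3 other genes with the most similar log2 signals over the 6 arrays are given as a description, by Pearson's r. They are the best of all genes compared over few arrays, and arrays of a group share their diet. Orm1 was followed most closely by Pom121 (r = 0.986), Slc12a2 (0.983) and Hspd1 (0.969), which encode a nuclear pore protein, a chloride cotransporter and a mitochondrial chaperone. A2m went with Sec61b (0.970), Tubg1 (0.965) and Fkbp11 (0.963), of which Sec61b is part of the channel into the endoplasmic reticulum. Ambp went with Cnnm4 (0.992), Ufsp2 (0.991) and Mfsd6 (0.990). Cp went with Dglucy (0.977), Cbfa2t2 (0.969) and Itih4 (0.967), itself a plasma protein of the related lists. Hp went with Hao2 (0.985), Cyp2d4 (0.981) and Acot7 (0.974), and C3 with Parp1 (0.965), Hsd17b7 (0.961) and Ptpra (0.950). Ahsg went with Slc25a26 (0.967), Jag2 (0.949) and Adam7 (0.941), Ttr with Maz (0.963), Serp1 (0.959) and Jak2 (0.958), and Alb with Vat1 (0.972), Camlg (0.970) and Rpl35 (0.963).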

How the data were processed

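The authors deposited a linear intensity for each probe set, made with MAS5 per the submitters' processing notes. The sources used here give neither its version nor its settings. The members and the related lists were chosen with earlier results of these data known. The table held 8799 probe sets, of which 59 array controls were set aside. The annotation gave 7006 probe sets a single symbol (4736 distinct), 308 several, and did not list 1426, which are unnamed here. Arrays were quantile normalized, 2.29 (the 10th percentile) was added, and log2 values computed here were tested where their mean exceeded the 40th percentile (3.95), 5244 probe sets in all. limma 3.58.1 in R 4.3.3 (lmFit, eBayes with intensity trend; degrees of freedom 4 residual, 3.91 prior) compared 3 NASH with 3 Control arrays, with Benjamini-Hochberg adjustment over all 5244, and the method was tested on simulated data. The text names every member probe set, from each list the 4 genes with the smallest p, and 3 similar genes per member. Where 1 value per gene was needed, the probe set with the highest mean was taken. Other settings concerned the scaling, the offset, the filter, the prior, array weights, replicate and wash record blocks, probe set choice, members and each array left out. No pair of arrays held duplicate values. Array number limits the precision, and a log2 difference understates change at dim signals. Promoter windows and gene order came from RefSeq tables on build GRCr8.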

Additional observations from a re-analysis of the deposited data

How the results depend on the processing

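No member probe set and no gene of the 6 related lists was called by limma under any of the 19 alternatives that gave a test (2 to 8 member probe sets lay at an unadjusted p under 0.05 in these, except 1 with a filled wash record only). Of 446 member differences under alternatives, 34 had the opposite sign, and 12 of the 22 probe sets kept their sign throughout, among them Orm1, both of Ambp and the 4 tested of A2m. Over all probe sets, 7 calls (5 higher, 2 lower) became 14 without scaling (8 and 6), 6 with median centring (3 and 3), 0 with no filter (626 at an unadjusted limma p under 0.05), 3 without the intensity trend, 20 with array weights, 3 with the wash record as a block, 2 with a filled wash record only and 15 without both Control 2 and NASH 2. With 1 array left out they ran from 0 (without Control 1, Control 3 or NASH 3, with 511, 417 and 266 at an unadjusted p under 0.05) to 17 (without NASH 2), with 1 without Control 2 or NASH 1. Positive minus negative moved from 0.09 to 0.23 between the arrays with a blank wash record, 0.30 with probe sets averaged, 0.30 without A2m and −0.13 without Orm1, the last chosen after seeing the data, and with 1 array left out it ran from 0.03 to 0.14. The titles number the arrays. Correlations of deviations between arrays of equal number were 0.05, −0.02 and 0.07, and 2 of 3 Control arrays correlated best with their own number. With 3 arrays per group these values cannot decide whether the numbers pair the arrays. With the replicate block 1 probe set was called and 0 members, and positive minus negative stayed 0.09.

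Signs turned as follows. Without scaling the difference was −0.055 for Cp Y12178_at, −0.25 for Ahsg X63446_at, −0.21 for both Ttr probe sets (rc_AA945169_g_at and rc_AA945169_at) and −0.032 for C3 M29866_s_at. With trimmed mean scaling it was −0.086 for Ahsg X63446_at and −0.040 and −0.044 for Ttr, and with median centring −0.13 for Ahsg X63446_at and −0.084 and −0.087 for Ttr. With array weights it was −0.049 for Cp rc_AA817854_s_at, −0.029 for Ttr rc_AA945169_g_at and 0.11 for Alb rc_AA860062_at. With a filled wash record only it was 0.036 for Hp, −0.0072 for Ttr rc_AA945169_g_at, and 0.013 and 0.052 for Alb rc_AA860062_g_at and rc_AA860062_at. Between blank wash records it was −0.11 for Cp rc_AA817854_s_at, −0.29 for Cp Y12178_at and −0.096 for Ahsg X63446_at. Without both Control 2 and NASH 2 it was −0.027 for Ttr rc_AA945169_g_at and 0.30 for Alb rc_AA860062_at. Averaged over probe sets it was 0.060 for Cp and −0.33 for Ahsg. With 1 array left out the ranges were −0.12 to 0.019 for Hp, −0.16 to 0.26 for Cp Y12178_at, −0.026 to 0.061 for Ahsg X63446_at, −0.014 to 0.047 for Ttr rc_AA945169_g_at, −0.0087 to 0.10 for Ttr rc_AA945169_at and −0.40 to 0.13 for Alb rc_AA860062_at. The cause was not tested.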
